A study of Homo sapiens with 4 samples.

Results

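Ribosome footprints were followed at 4 rows of a count table from A375 cells, rows whose places would hold genes of secreted proteins if the reads were aligned to the older human genome build. The rows are ENSG00000135905.21 on chromosome 2, ENSG00000196411.10 on chromosome 7, ENSG00000100697.17 on chromosome 14 and ENSG00000267568.7 on chromosome 17, out of 78724 rows in the table, of which 9443 held a read. They were chosen by their read counts in these same libraries, in both media, so their differences between media are given as a description and without a p-value. A375 is an established human melanoma line. Cells were kept for 48 h in arginine-free medium, a base free of amino acids to which all but L-arginine were added back, or in control medium, with 2 libraries per group. The labels give no recipe for the control medium, so whether it differed in anything but arginine is not stated. The labels do not state whether replicates were grown as separate cultures, so the spread between libraries may be technical. Total counts were 234766 and 192006 in arginine-free medium and 105004 and 217989 in control medium. Mitochondrial rows took 18.2% and 24.6% of these in arginine-free medium and 16.5% and 26.2% in control medium. Shares of all counts given below include these rows, so they depend on this uneven load.

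The row names belong to GRCh38, since the counting used the GENCODE 47 annotation, while the processing notes name GRCh37 and hg19 for the reads. By place, the RefSeq table of GRCh38.p14 puts DOCK10, an exchange factor for small GTPases, at the chromosome 2 row. It puts EPHB4, a receptor tyrosine kinase for an ephrin, at the chromosome 7 row, DICER1, the nuclease that releases microRNAs from their hairpins, at the chromosome 14 row, and the long noncoding RNA LOC105371899 at the chromosome 17 row. If the reads lie on GRCh37, the same spans hold SERPINE2, VGF together with the end of AP1S1, the end of SERPINA3 and the end of LGALS3BP. These gene names are an inference from place, made from general knowledge of the older build. No GRCh37 annotation was used here, and no coordinates were converted between builds. Footprints are counted only where they touch an exon of the row's own annotation, so each row would hold an arbitrary part of the reads of the inferred gene.

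Proteins that leave the cell are made on ribosomes docked at the endoplasmic reticulum, where a signal peptide leads the growing chain across the membrane. SERPINE2 (protease nexin-1) is a serpin, an inhibitor that traps serine proteases such as thrombin and urokinase outside the cell. SERPINA3 (alpha-1-antichymotrypsin) is a serpin of the acute phase that inhibits chymotrypsin-like proteases. LGALS3BP (Mac-2 binding protein) is a heavily glycosylated secreted ligand of galectins that interferons induce. VGF is a granin-like precursor of neuropeptides, stored in secretory granules of neurons and endocrine cells and induced by growth factors and cyclic AMP. AP1S1, its neighbour, is a small subunit of the AP-1 clathrin adaptor, which sorts cargo at the trans-Golgi network.

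The 250 bases before a RefSeq transcript start are shown for SERPINE2, VGF, SERPINA3 and LGALS3BP, to identify the genes meant; footprints measure nothing in them. SERPINE2 has windows at 2 starts, and both lie inside the span of its GRCh38 row (223975045 to 224039286, minus strand), the first of them nearer the outer end of the gene. AP1S1 is not shown. Sequences are from RefSeq on GRCh38.p14, 5′ to 3′ on the gene's strand, and these 4 genes matched by symbol. Capitals mark matches on either strand to the cyclic AMP response element TGACGTCA, the C/EBP-ATF response element TGATGNAA, the E-box CACGTG or a shortened interferon-stimulated response element GAAANNGAA. The windows are chr2:224038641-224038890 and chr2:224031479-224031728 (both minus strand), chr7:101165570-101165819 (minus strand), chr14:94612141-94612390 (plus strand) and chr17:78979924-78980173 (minus strand).
SERPINE2, outer start: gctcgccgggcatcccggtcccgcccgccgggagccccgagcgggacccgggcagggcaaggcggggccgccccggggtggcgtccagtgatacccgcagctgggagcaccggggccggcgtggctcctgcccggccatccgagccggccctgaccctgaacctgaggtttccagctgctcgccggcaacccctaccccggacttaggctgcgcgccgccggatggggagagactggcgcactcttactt
SERPINE2, inner start: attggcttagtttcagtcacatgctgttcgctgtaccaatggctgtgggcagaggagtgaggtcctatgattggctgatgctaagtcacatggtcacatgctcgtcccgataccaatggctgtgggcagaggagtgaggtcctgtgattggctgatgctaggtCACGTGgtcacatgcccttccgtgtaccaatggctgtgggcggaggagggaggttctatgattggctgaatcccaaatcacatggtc
VGF: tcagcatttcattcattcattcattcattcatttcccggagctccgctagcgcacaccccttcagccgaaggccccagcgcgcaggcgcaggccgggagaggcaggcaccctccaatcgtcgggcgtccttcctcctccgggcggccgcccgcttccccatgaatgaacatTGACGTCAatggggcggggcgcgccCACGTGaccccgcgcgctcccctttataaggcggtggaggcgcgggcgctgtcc
SERPINA3: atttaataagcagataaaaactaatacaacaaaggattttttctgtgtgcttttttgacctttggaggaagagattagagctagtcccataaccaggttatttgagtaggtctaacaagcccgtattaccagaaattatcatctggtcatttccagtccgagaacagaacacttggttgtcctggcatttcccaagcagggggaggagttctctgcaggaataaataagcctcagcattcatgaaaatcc
LGALS3BP: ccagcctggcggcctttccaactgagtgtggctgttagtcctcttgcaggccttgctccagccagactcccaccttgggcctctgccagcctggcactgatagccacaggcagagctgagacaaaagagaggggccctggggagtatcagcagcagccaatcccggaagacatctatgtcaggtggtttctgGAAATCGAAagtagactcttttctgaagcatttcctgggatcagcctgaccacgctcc

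Counted back from the start that each window precedes, the VGF window held a cyclic AMP response element beginning at -79 and an E-box beginning at -54. The window at the outer SERPINE2 start held none of these motifs, and the one at the inner start held an E-box at -87. An interferon-stimulated response element began at -58 in the LGALS3BP window, and none of the 4 motifs was found in the SERPINA3 window. Over all 35116 windows of the same length, 1.65% held TGACGTCA, 3.14% TGATGNAA, 6.34% CACGTG and 6.88% GAAANNGAA. The motifs were kept after their matches in the printed windows were seen, so these shares do not tell how unusual the matches are. No 2 matches in the printed windows overlapped. A match is a run of letters and not evidence of binding.

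On the GRCh38 places of the inferred genes there were almost no reads. The rows of SERPINE2 (ENSG00000135919.14), VGF (ENSG00000128564.8), SERPINA3 (ENSG00000196136.18) and AP1S1 (ENSG00000106367.15) had 0 reads in every library. That of LGALS3BP (ENSG00000108679.13) held 0 and 2 reads in arginine-free medium and 4 and 1 in control medium. On GRCh38 these rows lie away from the rows that held the reads, by 0.726 Mb for SERPINE2, 0.335 Mb for VGF, 0.462 Mb for SERPINA3 and 2.00 Mb for LGALS3BP. Rows at 0 were common over the table. Of 17806 protein-coding nuclear rows outside 5 stretches and the start of chromosome 6, 73% held no read, against 28.2% of 376 inside those stretches, which run between SDHA and HMGCS1, H1-1 and H4C3, H2BC7 and H2BC10, VLDLR and VCP, and ATP5F1D and CHAF1A. Only in such regions is a row read below as the gene it names. That reading is an assumption, since no coordinates were converted.

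The 4 rows held most of the reads in their surroundings. They were chosen by their read counts, which makes this likely beforehand, so nothing is read from it. Within 300 kb on either side, the chromosome 2 row held 99.9% of all reads, with 3 reads in the 10 other rows there. The chromosome 14 row also held 99.9%, with 9 reads in 19 other rows. The chromosome 17 row held 96.7%, with 214 reads in 34 other rows. The chromosome 7 row held 74.3%, and 2127 reads lay in 8 of 45 other rows, so its surroundings carried other footprints as well. Exons cover 2.79% of the span of the chromosome 2 row, in 58 blocks, against 17.4% for the chromosome 7 row, 17.4% for the chromosome 14 row and 33.3% for the chromosome 17 row.

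**Figure D1:**
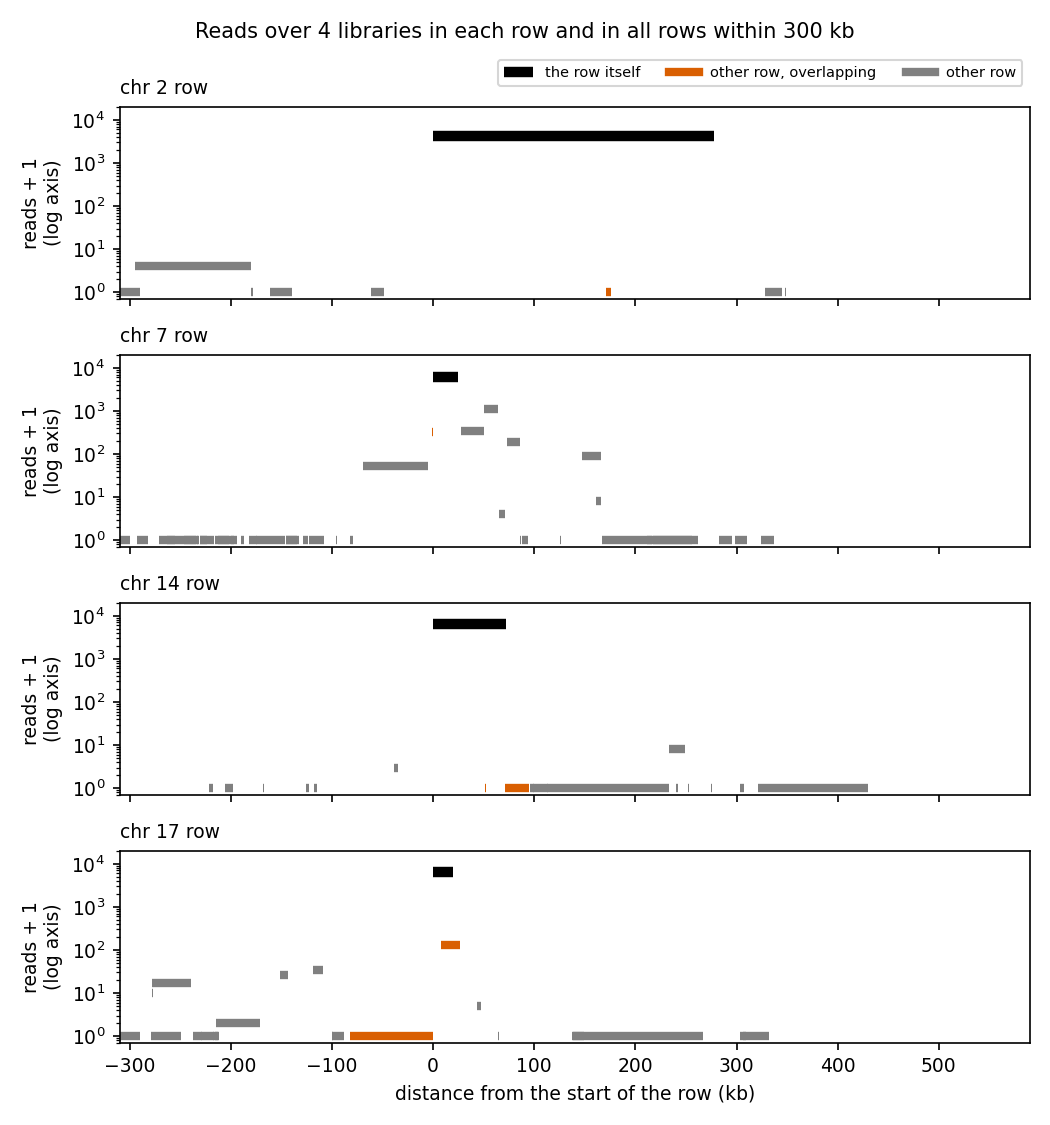
Reads summed over the 4 libraries (y axis, reads + 1, log scale) in each of the 4 rows (black) and in all other rows within 300 kb (orange where they overlap the row, grey otherwise), by distance from the start of the row in kb. The chromosome 2 and 14 rows hold 4219 and 6504 reads beside rows with few or none, and the chromosome 7 row, with 6144 reads, is followed by further rows with reads.

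Among the 4 rows, footprints were about 5-fold fewer in arginine-free medium at the places inferred to be SERPINA3 and LGALS3BP. They were about 3-fold more at the place inferred to be VGF with the end of AP1S1. At the place inferred to be SERPINE2 they were little different. Levels are given as CPM, that is counts divided by the summed tested rows of a library and its TMM factor. By these levels the libraries of both media did not overlap at any of the 4 rows, 2 being higher and 2 lower in arginine-free medium, where 33.1% of all 2526 tested rows were higher and 34.2% lower without overlap. At an edgeR adjusted p under 0.05, 1 of the 4 rows was higher and 2 were lower, against 16% and 16.9% of all tested rows. Because the rows were chosen with these values known, nothing is read from either count. In cells of 1 line taken as a whole, a change in the cells making a protein and a change in footprints per cell cannot be told apart. Nor can a change in mRNA and a change in footprints per mRNA, since no matched RNA counts were used here. Whether more or fewer footprints went with more or less protein made was not tested.

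**Figure D2:**
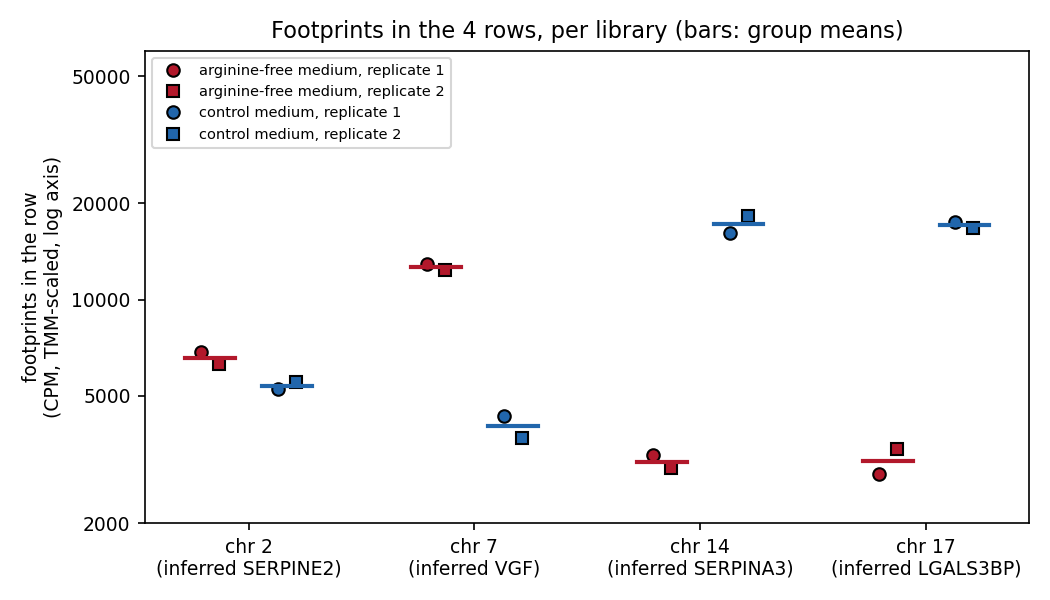
Footprints in each row (y axis, CPM with TMM scaling, log scale) for the arginine-free libraries (red, left) and the control libraries (blue, right), with circles for replicate 1, squares for replicate 2 and bars for group means. The chromosome 14 and 17 rows lie between 2858 and 3411 CPM in arginine-free medium and between 16130 and 18290 CPM in control medium, and the chromosome 7 row shows the opposite order.

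The row at the place inferred to be the end of SERPINA3 (ENSG00000100697.17, chromosome 14, 95086228 to 95158010, GRCh38 names) held 754 and 472 reads in arginine-free medium and 1711 and 3567 reads in control medium. That is 3265 and 2965 CPM against 16130 and 18290 CPM, so every arginine-free library lay far below both control libraries. The group means were 3115 ± 213 CPM in arginine-free medium and 17210 ± 1533 CPM in control medium (SD, n = 2 each). The fitted log2 fold change was -2.47 (SE 0.26), or 5.52-fold lower, and the 4 ratios of single libraries ran from 4.94-fold to 6.17-fold lower. As a share of all counts the row took 0.321% and 0.246% in arginine-free medium, against 1.63% and 1.64% in control medium. The row is inferred to touch SERPINA3 at its low-coordinate side, where its longest exon block (95086228 to 95091109, 4882 bases) lies. The other exons, in 33 blocks altogether, cover the rest of the DICER1 span, and the table does not tell where within the row the reads fell. Both rows that overlap it were at 0. The nearest rows with at least 20 reads were far off. The one 568.4 kb before it, SERPINA12 by its GRCh38 place, differed by -0.55 on the log2 scale (SE 0.37, adjusted p = 0.276, edgeR). The one 5621.2 kb after it, ENSG00000214548.19, was higher in arginine-free medium by 3.08 (SE 0.29, adjusted p = 3.28e-06, edgeR).

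The row at the place inferred to be the end of LGALS3BP (ENSG00000267568.7, chromosome 17, 76950316 to 76969530) held 660 and 543 reads in arginine-free medium and 1852 and 3263 reads in control medium. In CPM these were 2858 and 3411 against 17450 and 16730, again with the media well apart. Means were 3135 ± 391 CPM in arginine-free medium and 17090 ± 509 CPM in control medium (SD, n = 2 each). The fit put the row 5.46-fold lower, at -2.45 on the log2 scale (SE 0.26). Single libraries differed by 4.91-fold to 6.11-fold. The longest of its 8 exon blocks (76966285 to 76969530, 3246 bases) lies at the high-coordinate side, where the end of LGALS3BP is inferred to be.

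A row on the opposite strand, ENSG00000309397.1 (chromosome 17, 76957727 to 76976488), overlaps the chromosome 17 row and reaches beyond it. It was not among the 4 rows and held 25 and 13 reads in arginine-free medium and 31 and 57 in control medium, or 95 ± 18.8 and 292 ± 0.122 CPM (SD, n = 2 each). It fell by 1.59 on the log2 scale (SE 0.32, adjusted p = 0.00174 by the quasi-likelihood test of edgeR), lower in both arginine-free libraries than in either control library. The counting took no account of strand, and 183 exon bases are common to both rows. The file header shows no option to count a read for several rows, so a read is counted in at most 1 of them. The call ended with DESeq2 (adjusted p = 0.0719). The nearest row with at least 20 reads after them, ENSG00000300199.1 (831.4 kb away), was at 106 ± 45.7 CPM in arginine-free medium and 32.5 ± 19.3 CPM in control medium (SD, n = 2 each). It was higher by 1.48 on the log2 scale (SE 0.54, adjusted p = 0.0493, edgeR). That call ended with RLE factors (0.0544), upper-quartile factors (0.0508) and DESeq2 (0.308), and without control replicate 1 (0.187) or arginine-free replicate 2 (0.246). The nearest before them held 33 reads and was not tested.

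The row at the place inferred to be VGF with the end of AP1S1 (ENSG00000196411.10, chromosome 7, 100802565 to 100827523) held 2992 and 1972 reads in arginine-free medium and 459 and 721 reads in control medium. In CPM these were 12960 and 12390 against 4326 and 3698, and both arginine-free libraries lay above both control libraries. The means were 12670 ± 404 CPM in arginine-free medium and 4012 ± 444 CPM in control medium (SD, n = 2 each). The fit put the row 3.16-fold higher, at 1.66 on the log2 scale (SE 0.25). Ratios of single libraries ran from 2.86 to 3.50. Its share of all counts was 1.27% and 1.03% in arginine-free medium and 0.437% and 0.331% in control medium.

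The chromosome 7 row would draw from more than 1 gene, and the nearest rows with at least 20 reads give separate values. ENSG00000308614.1 (100801724 to 100802647) overlaps its low-coordinate end, the side of AP1S1, and shares 83 exon bases with it. That row had 430 ± 31.9 CPM in arginine-free medium and 504 ± 19.7 CPM in control medium (SD, n = 2 each). Its difference of -0.24 on the log2 scale (SE 0.22, adjusted p = 0.445, edgeR) did not pass. The next row after the high-coordinate end, ENSG00000236305.4 (2.9 kb away), had 705 ± 60.0 CPM in arginine-free medium and 256 ± 78.5 CPM in control medium (SD, n = 2 each). It was higher in arginine-free medium, by 1.51 on the log2 scale (SE 0.26, adjusted p = 0.000589, edgeR). Before the low-coordinate end, the row at the place of ZAN (4.8 kb away) had 76.7 ± 1.83 and 82.6 ± 29.8 CPM in the same order, differing by -0.02 on the log2 scale (SE 0.45, adjusted p = 0.978, edgeR). How the reads of the chromosome 7 row divide between VGF and AP1S1 was not tested. Its longest exon block (100802565 to 100803590, 1026 bases) lies on the AP1S1 side, and the 17 blocks together hold 4353 bases.

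The row at the place inferred to be SERPINE2 (ENSG00000135905.21, chromosome 2, 224765090 to 225042468) held 1579 and 1005 reads in arginine-free medium and 556 and 1079 reads in control medium. In CPM these were 6838 and 6313 against 5240 and 5534, a narrow gap in which the lowest arginine-free library was 1.14-fold the highest control library. The means were 6575 ± 372 CPM in arginine-free medium and 5387 ± 208 CPM in control medium (SD, n = 2 each). The fitted log2 fold change was 0.29 (SE 0.23) or 1.22-fold. As a share of all counts, without TMM scaling, the row took 0.673% and 0.523% in arginine-free medium and 0.53% and 0.495% in control medium, so the groups overlapped on that scale. The row was among the 3 that held more than 90% of the reads within 300 kb, and both rows overlapping it were at 0. The nearest row before it with at least 20 reads, at the place of AP1S3 (927.5 kb away), had 132 ± 9.17 CPM in arginine-free medium and 38.9 ± 11.6 CPM in control medium (SD, n = 2 each), higher by 1.83 on the log2 scale (SE 0.45, adjusted p = 0.00707, edgeR). That call ended without control replicate 2 (adjusted p = 0.0899, edgeR) and with DESeq2 (adjusted p = 0.16).

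The 4 rows together took 2.55% and 2.08% of all counts in arginine-free medium and 4.36% and 3.96% in control medium. Ratios of reads between rows of the same library need no scaling between libraries, although they say nothing of relative levels because the exons differ. The VGF place is inferred to include the end of AP1S1. Over the SERPINA3 place it stood at 3.97 and 4.18 in arginine-free medium and at 0.268 and 0.202 in control medium. The VGF place over the LGALS3BP place stood at 4.53 and 3.63 against 0.248 and 0.221. Between the inferred serpins, the SERPINE2 place over the SERPINA3 place was 2.09 and 2.13 in arginine-free medium and 0.325 and 0.302 in control medium. This ratio thus differed between media, while the fitted change was 0.29 at the SERPINE2 place and -2.47 at the SERPINA3 place. The SERPINA3 place over the LGALS3BP place was 1.14 and 0.869 in arginine-free medium and 0.924 and 1.09 in control medium, and these ranges overlapped.

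**Figure D3:**
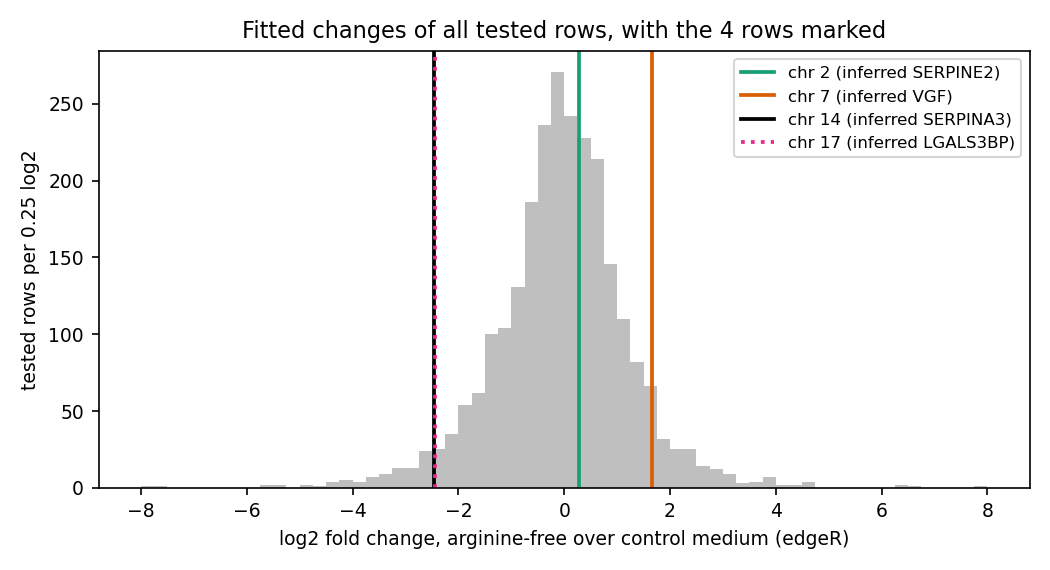
Histogram of the fitted log2 fold changes (x axis, arginine-free over control medium) of all 2526 tested rows, in bins of 0.25, with a line for each of the 4 rows. The chromosome 14 and 17 rows coincide at -2.47 and -2.45, the chromosome 7 row is at 1.66 and the chromosome 2 row, at 0.29, lies in the bulk.

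Over all 2526 tested rows the median log2 fold change was -0.03. The chromosome 14 row had 91 rows below it and the chromosome 17 row 94, the chromosome 7 row had 164 rows above it, and the chromosome 2 row 954. Among the 93 tested rows with at least 1000 reads, 3 were lower than the chromosome 14 row, 4 lower than the chromosome 17 row and 8 higher than the chromosome 7 row. With 49 of those 93 rows above it and 43 below, the chromosome 2 row was near their middle. The rows below the chromosome 17 row include the chromosome 14 row. Because the rows were chosen with their differences known, nothing is read from these ranks.

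Among 179 tested rows named inside the 5 stretches, those nearest in pattern were found by the Euclidean distance between log2 CPM values, each row centred on its mean over the 4 libraries. These values were computed with a prior count of 2, which shrinks differences in rows with few reads. For the chromosome 2 row these were VCP (distance 0.092), TARS1 (0.126) and TIMM13 (0.138). VCP, an ATPase that unfolds ubiquitinated proteins, had 2100 and 1900 CPM in arginine-free medium and 1480 and 1670 CPM in control medium. For the chromosome 7 row they were RPL37 (0.302), of the large ribosomal subunit, OAZ1 (0.314), the antizyme of polyamine synthesis, and PLIN2 (0.329), which coats lipid droplets. For the chromosome 14 row they were the linker histone H1-3 (0.378), the guidance protein SEMA5A (0.513) and the histone H2BC8 (0.65). SEMA5A held only 6 and 4 reads in arginine-free medium and 30 and 49 in control medium. The fitted log2 changes of SEMA5A and H2BC8 were -3.33 and -3.11, larger than the -2.47 of the chromosome 14 row. For the chromosome 17 row they were H1-3 (0.123), the histone H2BC7 (0.362) and the chromatin protein HMG20B (0.363). H1-3 had 511 and 666 CPM in arginine-free medium and 3300 and 3400 CPM in control medium. Likeness over 4 libraries in 2 groups is mainly a likeness of the difference between media.

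Other serpins could be followed only in part. Of 34 serpin genes in RefSeq, 33 matched a row, 23 of these rows were at 0 and 5 were tested. Of the 5, 1 was lower by edgeR, where 16.9% of all tested rows were, so nothing is read from this count. Only 2 of the 5, SERPINB1 and SERPINB6, lie where a row is read as the gene it names. The median log2 fold change of the 5 rows was -0.56, against -0.03 over all tested rows. The intracellular serpins SERPINB1, SERPINB6 and SERPINB9 lie at the start of chromosome 6, where 25.9% of 108 protein-coding rows were at 0. Their rows are read here as the genes by assumption, and may hold only part of each gene's reads. SERPINB1, an inhibitor of neutrophil proteases (2832332 to 2841863), had 73.6 and 75.4 CPM in arginine-free medium and 245 and 225.7 CPM in control medium. It fell by 1.64 on the log2 scale (SE 0.33, adjusted p = 0.00179, edgeR), but did not pass with DESeq2 (adjusted p = 0.0983). SERPINB6 had 125.6 and 157 CPM in arginine-free medium and 207.3 and 205.1 CPM in control medium, and its difference of -0.56 on the log2 scale (SE 0.31, adjusted p = 0.189, edgeR) did not pass. SERPINB9, an inhibitor of granzyme B, held 2 reads in all, 1 in each arginine-free library.

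The other lists of related genes were largely out of reach of the table. For plasminogen activation, the protease system that SERPINE2 and its relatives restrain, 10 of 13 matched rows were at 0, and 1 was tested and did not pass (F2, adjusted p = 0.276, edgeR). For granins and neuropeptide processing, 9 of 11 were at 0, and the 1 tested did not pass (CHGB, adjusted p = 0.871, edgeR). Of 16 galectin rows, LGALS3BP included, 13 were at 0 and none was tested. The AP-1 adaptor list had 3 tested rows of 9, with 1 higher, 1 lower and a median log2 fold change of 0.65, where 16% of all tested rows were higher and 16.9% lower. For entry into the secretory pathway, 18 of 32 rows were at 0 and 1 of 3 tested was lower, with a median of -0.15. For secreted matrix proteins, 22 of 29 were at 0 and 1 of 3 tested was higher, with a median of 0.59. With so few tested rows, these counts are not set apart from those shares. None of these rows lies in a region where its name can be taken as its gene.

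The label of the cells was checked against markers. Of 8 melanocytic markers 7 matched a row, 4 of these rows were at 0, and MLANA and TYRP1 lie inside a stretch. MLANA held 0 and 2 reads in arginine-free medium and 6 and 10 in control medium, and TYRP1 held 1 and 0 against 16 and 25. TYRP1 was lower in arginine-free medium (edgeR adjusted p = 0.000104). Summed over the melanocytic rows there were 1 and 2 reads in arginine-free medium and 23 and 36 in control medium. This sum includes the row of S100B, which lies outside the stretches and held 0 and 0 reads against 1 and 1. All 4 fibroblast rows were at 0, keratinocyte rows held 7 and 2 reads against 0 and 4, and leukocyte rows held 0 and 0 against 0 and 1. Rows of these 3 lists stand in regions that cannot be read by name, and their low counts do not show which cells were present.

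**Figure D4:**
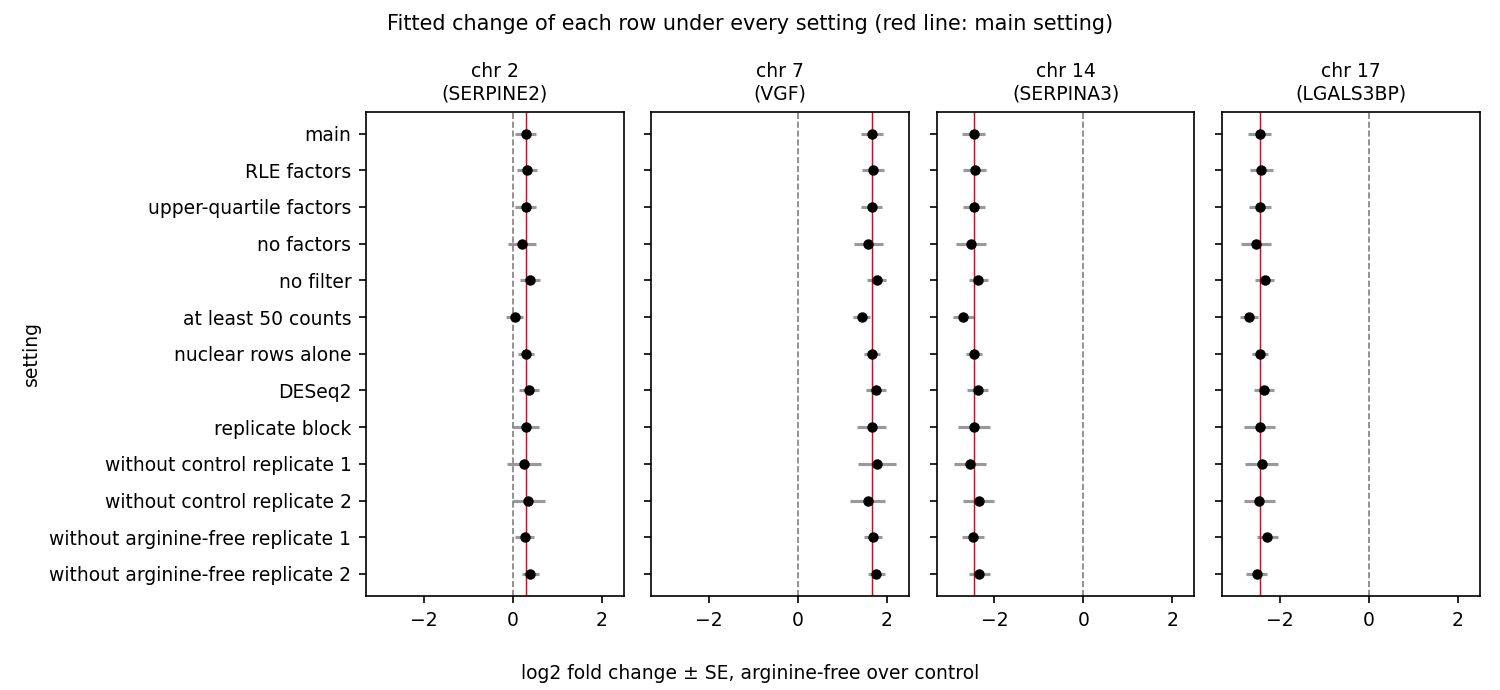
Fitted log2 fold change with its SE (x axis, arginine-free over control medium) of each row under the main setting and 12 alternatives (y axis), with a red line at the main value and a dashed line at 0. The chromosome 14 and 17 rows stay between -2.70 and -2.28, the chromosome 7 row between 1.43 and 1.78 and the chromosome 2 row between 0.05 and 0.40.

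Under all 12 alternatives each of the 4 rows kept the sign of its difference. Because the rows were chosen with this same difference known, that is no sign of stability.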

How the data were processed

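Footprint counts of 4 libraries were analysed. The authors deposited whole-number counts per gene row, made with featureCounts 2.0.1 on GENCODE 47 basic exons, unstranded and with the paired-read option, per the file headers. The tools cutadapt, Bowtie2 2.5.2 and TopHat2, and the builds GRCh37 and hg19 are listed by the submitters' processing notes. Single reads were sequenced without removal of ribosomal RNA, per the labels' protocols. Groups and replicate numbers came from sample titles.

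Rows were named by place against RefSeq GRCh38.p14 as mutual best matches (overlap divided by union 0.75 or more, or 0.5 where a boundary is shared). edgeR 4.0.16 (R 4.3.3) was run on the whole table with TMM factors (0.885 to 1.1), filterByExpr by group and quasi-likelihood fits. p-values were adjusted over 2526 rows by the Benjamini-Hochberg method, with a threshold of 0.05. The SE is the size of the log2 change divided by the root of its F statistic. DESeq2 1.42.0 was an alternative. Tables were handled in Python 3.11.15 with pandas 2.3.3.

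The 4 rows, the lists, the stretches and the motifs were chosen with earlier results of these data known. The motifs were kept from a wider scan of the same windows after its matches were seen, and the interferon motif was then shortened, which raised the share of windows that hold it. Named rows are the 4 rows, the GRCh38 rows of the inferred genes, rows with at least 20 reads that overlap a row or are nearest on either side, list members tested inside the stretches, and the 3 rows nearest in pattern. SERPINB1, SERPINB6, SERPINB9, MLANA, S100B, F2, CHGB, SRRT and ENSG00000146828.18 were named after their values were seen.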

Additional observations from a re-analysis of the deposited data

How the results depend on the processing

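The main setting was compared with 12 alternatives. A minimum of 50 counts in both libraries of either group left 580 rows and shifted the median log2 fold change of these rows by -0.24. The values were then 0.05 for the chromosome 2 row, 1.43 for the chromosome 7 row, -2.70 for the chromosome 14 row and -2.69 for the chromosome 17 row, each a move close to that shift. The chromosome 2 row was at 0.21 without factors, 0.39 without a filter, which moved the median of all rows by 0.1, and 0.37 with DESeq2. Leaving out each library in turn gave 0.25 to 0.40 for the chromosome 2 row, 1.57 to 1.78 for chromosome 7, -2.55 to -2.34 for chromosome 14 and -2.52 to -2.28 for chromosome 17; the lone library left is then assumed to vary like the other group. Of all tested rows, 405 passed as higher in arginine-free medium and 428 as lower, against 138 and 146 with at least 50 counts, and 162 and 147 with DESeq2. With a library left out, 270 to 418 were higher and 243 to 389 lower, the lowest of both without control replicate 2. For 11 other named rows, 115 of 124 values stayed on their side of the threshold and 9 no longer passed. Rows in the gene lists numbered 2 higher and 4 lower, against 1 and 1 with at least 50 counts and 1 and 2 with DESeq2, and 1 to 3 and 3 to 5 with a library left out. Without a filter, the list rows numbered 2 higher and 6 lower. Few list rows were tested, and 16% of all 2526 tested rows were higher and 16.9% lower in the main setting. Nothing is therefore read from the counts of list rows. The cause of the changes between settings was not tested beyond the different rows or fewer libraries used. The replicate numbers are shared by both media, and deviations of same-numbered libraries correlated at -0.05. With 2 numbers this cannot tell whether same-numbered libraries were paired. With the number as a replicate block the 4 rows stood at 0.29, 1.66, -2.46 and -2.45, and 354 rows were higher and 372 lower. Each of the 4 rows held at least 459 reads in every library, and the number of libraries limits their precision.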
